A study of Mus musculus with 35 samples.

Results

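The genes of the motile cilium were measured in whole-lung RNA of Cav1-KO, Cav1-RC and Control mice. The set was chosen by name from the protein-coding rows of the count table. It takes every symbol that begins with Dnah, Dnai, Dnaaf, Drc, Rsph, Cfap, Tekt, Spef or Ift followed by a digit, together with Foxj1, Mns1, Ccdc153, Ak7, Ccdc39 and Ccdc40. It holds 88 genes of the 54532 in the table, of which 22046 were labelled protein-coding. By structure, they fell into 15 dynein heavy chains (Dnah), 4 dynein arm assembly factors (Dnaaf), 6 genes of the nexin-dynein regulatory complex and axonemal ruler (Drc, Ccdc153, Ccdc39, Ccdc40) and 8 radial spoke genes (Rsph). The remainder were 9 tektins and other axonemal genes (Tekt, Spef, Mns1, Ak7), 31 Cfap genes, 14 intraflagellar transport (IFT) genes and the regulator Foxj1. No Dnai gene was among them.

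Control mice were B6/129SJ2. Cav1-KO mice carried the global knockout Cav1(tm1Mls/)J, and Cav1-RC mice were the same knockout with Cav1 returned to endothelial cells only, so that the other cells of their lungs lack it. All were adults, and males and females were kept for 6 weeks in normoxia (room air) or in hypoxia (10% oxygen). This gave 12 groups of 3 mice each, apart from Cav1-KO and Cav1-RC females in normoxia, with 2 mice each. Cav1, the targeted gene, stood at 989 to 1356 counts scaled to library size (CPM) in the 12 Control libraries, at 1.61 to 3.997 in the 11 Cav1-KO libraries and at 1.48 to 6.56 in the 11 Cav1-RC libraries. The count separated Control from both other genotypes, but the ranges of Cav1-KO and Cav1-RC overlapped, so that these counts do not show Cav1 returned in Cav1-RC lungs. Depth ranged from 12425535 to 33343006 counts per library. By Xist and 4 Y chromosome genes, 3 of the 34 libraries went against their sex label (male Cav1-RC normoxia replicates 1 and 2 and male Control hypoxia replicate 2). They were kept in their labelled groups, and 1 female library (Cav1-KO hypoxia replicate 2) held Y chromosome reads above 10 CPM. The study's source list for its western blots names some of these mice. All 6 Cav1-KO hypoxia libraries and all 3 male Control hypoxia libraries come from mice on that list, as does replicate 1 among the females of Control in normoxia, of Control in hypoxia and of Cav1-RC in normoxia. In the Cav1-KO mice of both sexes and in the Control males, being on the list and hypoxia cannot be told apart.

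A motile cilium is a bundle of microtubules, the axoneme, whose doublets slide against each other when the outer and inner dynein arms pull. Radial spokes and the nexin-dynein regulatory complex keep that sliding in rhythm, tektins and other inner proteins stiffen the doublets, and IFT trains carry building blocks to the tip. In the lung, such cilia stand on the multiciliated cells of the conducting airways, where they move mucus, and Foxj1 is the transcription factor that switches on most axonemal genes. IFT is shared with the primary cilium that many other cell types carry. In whole lung, fewer multiciliated cells and less RNA per cell cannot be told apart.

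The promoters of ciliary genes are known to hold X-box motifs, bound by RFX factors, and forkhead motifs, bound by Foxj1. RefSeq promoter windows (250 bases before to 50 after the start of the gene, build GRCm38.p6) were found for 72 of the 88 genes. The X-box, GTTNCC and GGNAAC parted by 2 bases, was in 1 of these 72 genes (1.39%), against 0.529% of 27025 genes with such windows. A gene with several starts has several windows. A shorter X-box part, GTTNCC followed directly by ATGG, was in 2 (2.78%, against 1.33%) and the forkhead core TGTTTAC in 5 (6.94%, against 4.05%). Both strands were searched, and the 3 motifs were counted separately. The match of each of the first 3 genes is shown within 60 bases of its promoter, along the strand of the gene, with the matched letters in capitals, because Cfap97d2 is among the genes called in several comparisons and Cfap298 holds the only full X-box.
Cfap298: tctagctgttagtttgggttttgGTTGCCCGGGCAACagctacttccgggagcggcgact
Cfap74: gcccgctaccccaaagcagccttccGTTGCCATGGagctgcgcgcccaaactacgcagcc
Cfap97d2: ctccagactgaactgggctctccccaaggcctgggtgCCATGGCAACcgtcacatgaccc
These windows lie at chr16:90935001-90935060, minus strand (Cfap298), chr4:155409178-155409237, plus strand (Cfap74) and chr8:13705829-13705888, plus strand (Cfap97d2). The match of Cfap97d2 reads on the opposite strand. A window of Cfap74 at another start holds a match past that start, which is not printed. The forkhead core is shown for Ak7 and Tekt3, both of which were called in some comparisons.
Ak7: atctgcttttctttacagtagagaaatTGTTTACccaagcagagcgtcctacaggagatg
Tekt3: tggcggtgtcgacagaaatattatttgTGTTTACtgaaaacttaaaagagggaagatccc
These lie at chr12:105705824-105705883, plus strand (Ak7) and chr11:63061458-63061517, plus strand (Tekt3). The other 3 matches were in Cfap20, Dnah17 and Cfap43. A match is a description of the letters and says nothing of binding in these lungs.

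In the 6 Control normoxia libraries, the genes with the highest levels were Foxj1, Ccdc153 and Rsph1. The values are the deposited FPKM (fragments scaled to gene length and to library size), which are per length and can be compared between genes. Foxj1 averaged 54.5 FPKM, the nexin-dynein and ruler genes had a median of 8.64 FPKM with Ccdc153 at 51.8, and the spoke genes had a median of 7.27 with Rsph1 at 39.9. The IFT genes had a median of 7.37 FPKM and reached 33.7 at Ift20. Dynein heavy chains, which are very long genes, were the lowest class, with a median of 2.05 FPKM and a highest mean of 7.65. Of the 88 genes, 20 averaged above 10 FPKM and 11 below 1, and 6 of these 11 were dynein heavy chains. Rsph6a and Cfap97d1 never exceeded 3 and 14 counts, so that 86 genes passed the filter on low counts in every comparison.

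Cav1-KO mice in normoxia had the lowest motile cilia RNA of all groups, in both sexes. The summed FPKM of the 88 genes was 370 to 399 in the 2 Cav1-KO females and 392.1 to 412.1 in the 3 Cav1-KO males. These 5 libraries were the lowest of all 34, and the next lowest held 480. The sums were 539 to 917 in Control females and 550 to 788 in Control males in normoxia. Hypoxic Cav1-KO lungs held 598 to 872 in females and 652 to 759 in males, inside the span of the normoxic Control groups of the same sex. 1 further library, labelled Cav1-KO, female and normoxia with each term marked uncertain, entered no comparison, and its sum was 766 FPKM.

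**Figure D1:**
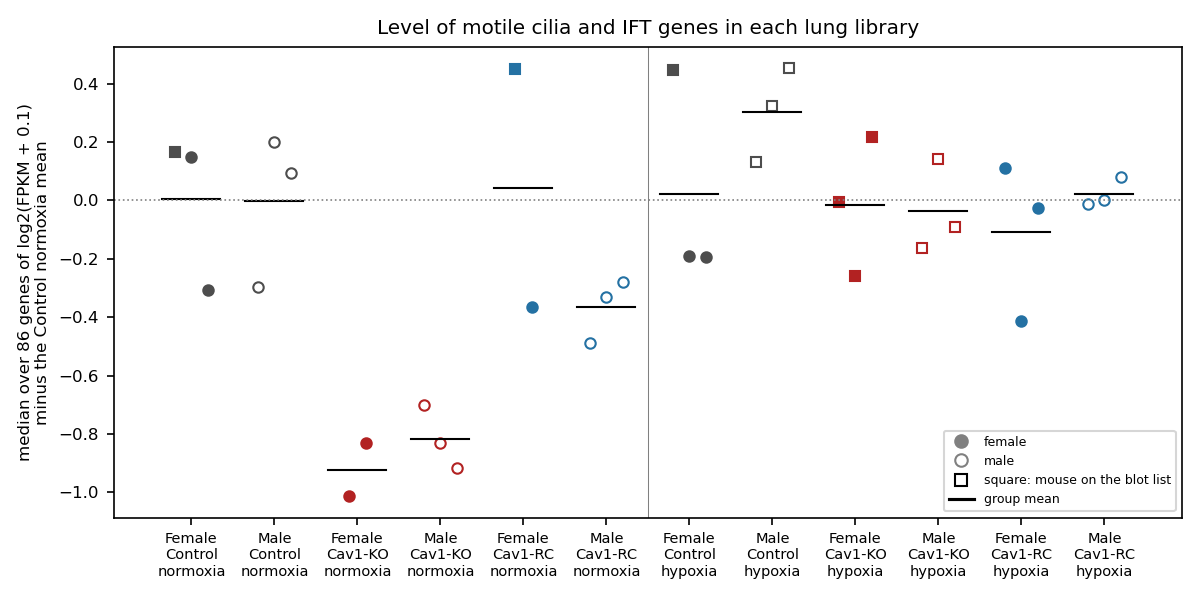
The y axis gives, for each of the 34 libraries, the median over 86 genes of log2(FPKM + 0.1) minus the Control normoxia mean; filled symbols are females, open symbols males, squares mice on the western blot list, and lines group means. The 5 Cav1-KO normoxia libraries lie between -1.01 and -0.70, and every other library lies at -0.49 or above.

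The comparison of Cav1-KO with Control in normoxia sets mice without Cav1 beside Control mice, with no hypoxia. Whether these lines differ in more than Cav1 was not tested. In males, 39 of the 86 genes fell and 1 rose by edgeR's quasi-likelihood test, where a call needs a log2 fold change beyond 1 in size and a Benjamini-Hochberg adjusted p under 0.05 over all genes. Over all 17439 genes tested, 3.74% were called lower and 1.26% higher. At any fold change, 57 of the 86 passed the adjusted p as lower and 2 as higher, against 6.52% and 4.92% of all genes. The median log2 fold change of the 86 genes was -0.98, and that of all genes was -0.01. All male libraries of this comparison come from mice that are not on the western blot list. Without Cav1-KO replicate 1, 2 or 3, 26, 23 and 24 genes were called.

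Foxj1, the regulator, was at 43.2, 70.6 and 60.7 FPKM in the 3 Control males and at 27.6, 23.7 and 23.9 in the 3 Cav1-KO males. The groups did not overlap, and the log2 fold change was -1.22 ± 0.17 (SE, adjusted p = 0.00524). Among regulators of ciliated cell fate, a list of 14 genes written from symbols, Trp73 and Ulk4 also fell, with log2 fold changes of -1.13 ± 0.13 (SE, adjusted p = 0.00284) and -1.17 ± 0.17 (SE, adjusted p = 0.00637), and the other 12 did not pass. Trp73 is a transcription factor of multiciliated cell differentiation that acts upstream of Foxj1.

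The nexin-dynein and ruler class fell as a whole, with 6 of 6 genes called and a median of -1.23. Ccdc153, a subunit of the nexin-dynein complex, had the most negative value of all 86 genes. It was at 34.8, 57.6 and 49.7 FPKM in Control males and at 13.3, 11.5 and 11.5 in Cav1-KO males, a log2 fold change of -1.97 ± 0.18 (SE, adjusted p = 0.00134). The lowest Control value was well above the highest Cav1-KO value. Drc1 and Drc7, which build the same complex, changed by -1.45 ± 0.16 (SE, adjusted p = 0.00221) and -1.16 ± 0.14 (SE, adjusted p = 0.00323). Ccdc39 and Ccdc40, the pair that sets the repeat of the axoneme, changed by -1.05 ± 0.13 (SE, adjusted p = 0.00346) and -1.02 ± 0.14 (SE, adjusted p = 0.00435).

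Of the radial spoke genes, 4 of 7 tested fell, with a median of -1.14. Rsph1, a protein of the spoke head, was at 23.9, 44.5 and 37.4 FPKM in Control and at 14.0, 13.6 and 16.01 in Cav1-KO males, so the groups were apart. Its log2 fold change was -1.28 ± 0.21 (SE, adjusted p = 0.00917), and that of Rsph14 was -1.40 ± 0.26 (SE, adjusted p = 0.0146). Among the other spoke genes, Rsph9 and Rsph4a of the spoke head had -1.14 ± 0.24 (SE, adjusted p = 0.0219) and -0.98 ± 0.14 (SE, adjusted p = 0.00520). Rsph4a did not pass the threshold on fold change.

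Of the dynein heavy chains, 6 of 15 fell and 1 rose. Dnah6, an inner arm heavy chain, was at 6.85, 8.85 and 8.47 FPKM in Control and at 3.46, 3.13 and 3.40 in Cav1-KO males and changed by -1.28 ± 0.11 (SE, adjusted p = 0.00119), with no overlap. Dnah9 and Dnah5 are heavy chains of the outer arm. They gave -1.07 ± 0.11 (SE, adjusted p = 0.00200) and -0.94 ± 0.12 (SE, adjusted p = 0.00389), of which Dnah9 passed the threshold on fold change and Dnah5 did not. Dnah12, another inner arm heavy chain, had -0.92 ± 0.15 (SE, adjusted p = 0.00910). The near-identical copies Dnah7a, Dnah7b and Dnah7c, between which reads can be split, had -1.13, -0.87 and -1.07, and Dnah7a was called.

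Dnah8 rose against the direction of its class. This heavy chain is best known from the sperm flagellum. It was at 0.544, 0.613 and 0.470 FPKM in Control males and at 1.34, 1.19 and 0.955 in Cav1-KO males, a log2 fold change of 1.10 ± 0.17 (SE, adjusted p = 0.00692). Its levels were low throughout, but the groups did not overlap. In females it was at 0.603, 0.561 and 0.481 FPKM in Control and at 1.15 and 1.19 in Cav1-KO, which again did not overlap, with 1.08 ± 0.22 (SE, adjusted p = 0.162), not called. Tekt5, another gene known from the sperm flagellum, was at 2.17, 2.17 and 2.94 FPKM in Control and 4.25, 3.91 and 3.94 in Cav1-KO males, with 0.73 ± 0.18 (SE, adjusted p = 0.0401), short of the fold threshold. In females it was at 3.31, 2.88 and 2.93 FPKM in Control and 2.30 and 2.73 in Cav1-KO, with -0.28 ± 0.27 (SE, adjusted p = 0.660), so that the fitted value had the other sign. None of the 3 tested genes of a male germ cell list was called in this comparison.

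Among tektins and other axonemal genes, 5 of 9 fell. Tekt1, which lies inside the doublet wall, was at 12.6, 22.2 and 17.6 FPKM in Control and 5.93, 5.71 and 5.81 in Cav1-KO males and changed by -1.59 ± 0.20 (SE, adjusted p = 0.00357). Mns1, a microtubule inner protein, and Ak7, an adenylate kinase of the axoneme, changed by -1.59 ± 0.18 (SE, adjusted p = 0.00286) and -1.20 ± 0.16 (SE, adjusted p = 0.00455). Spef1, a protein of the central pair, had -0.26 ± 0.10 (SE, adjusted p = 0.146) and was not called. In the Cfap class 15 of 30 fell, with a median of -1.01. Cfap126, a basal body protein of multiciliated cells, was at 11.8, 24.1 and 18.5 FPKM in Control and 7.85, 7.53 and 7.51 in Cav1-KO males and changed by -1.25 ± 0.23 (SE, adjusted p = 0.0137). Cfap65 changed by -1.31 ± 0.17 (SE, adjusted p = 0.00437), and Cfap97d2 by -1.50 ± 0.25 (SE, adjusted p = 0.00993). Cfap36 had -0.19 ± 0.14 (SE, adjusted p = 0.388). Of the assembly factors, which load dynein arms in the cytoplasm, 2 of 4 fell. Dnaaf1 changed by -1.21 ± 0.23 (SE, adjusted p = 0.0161) and Dnaaf3 by -1.10 ± 0.19 (SE, adjusted p = 0.0101).

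None of the 14 IFT genes was called by edgeR. Their median log2 fold change was -0.25, and at any fold change 5 of the 14 had an adjusted p under 0.05, all lower. These were Ift81, Ift88, Ift74, Ift172 and Ift80, all subunits of the anterograde IFT-B complex. Ift88 was at 5.38, 6.84 and 6.56 FPKM in Control and at 4.28, 3.99 and 4.10 in Cav1-KO males, with -0.61 ± 0.11 (SE, adjusted p = 0.0135). Ift43, of the retrograde IFT-A complex, had -0.38 ± 0.13 (SE, adjusted p = 0.0916). Ift20, the IFT gene with the highest level, stayed between 28.6 and 40.4 FPKM over all 34 libraries. A list of 28 tested IFT partners, motors and BBSome genes, which carry cargo in the primary cilium as well, held 0 calls and had a median of -0.30.

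**Figure D2:**
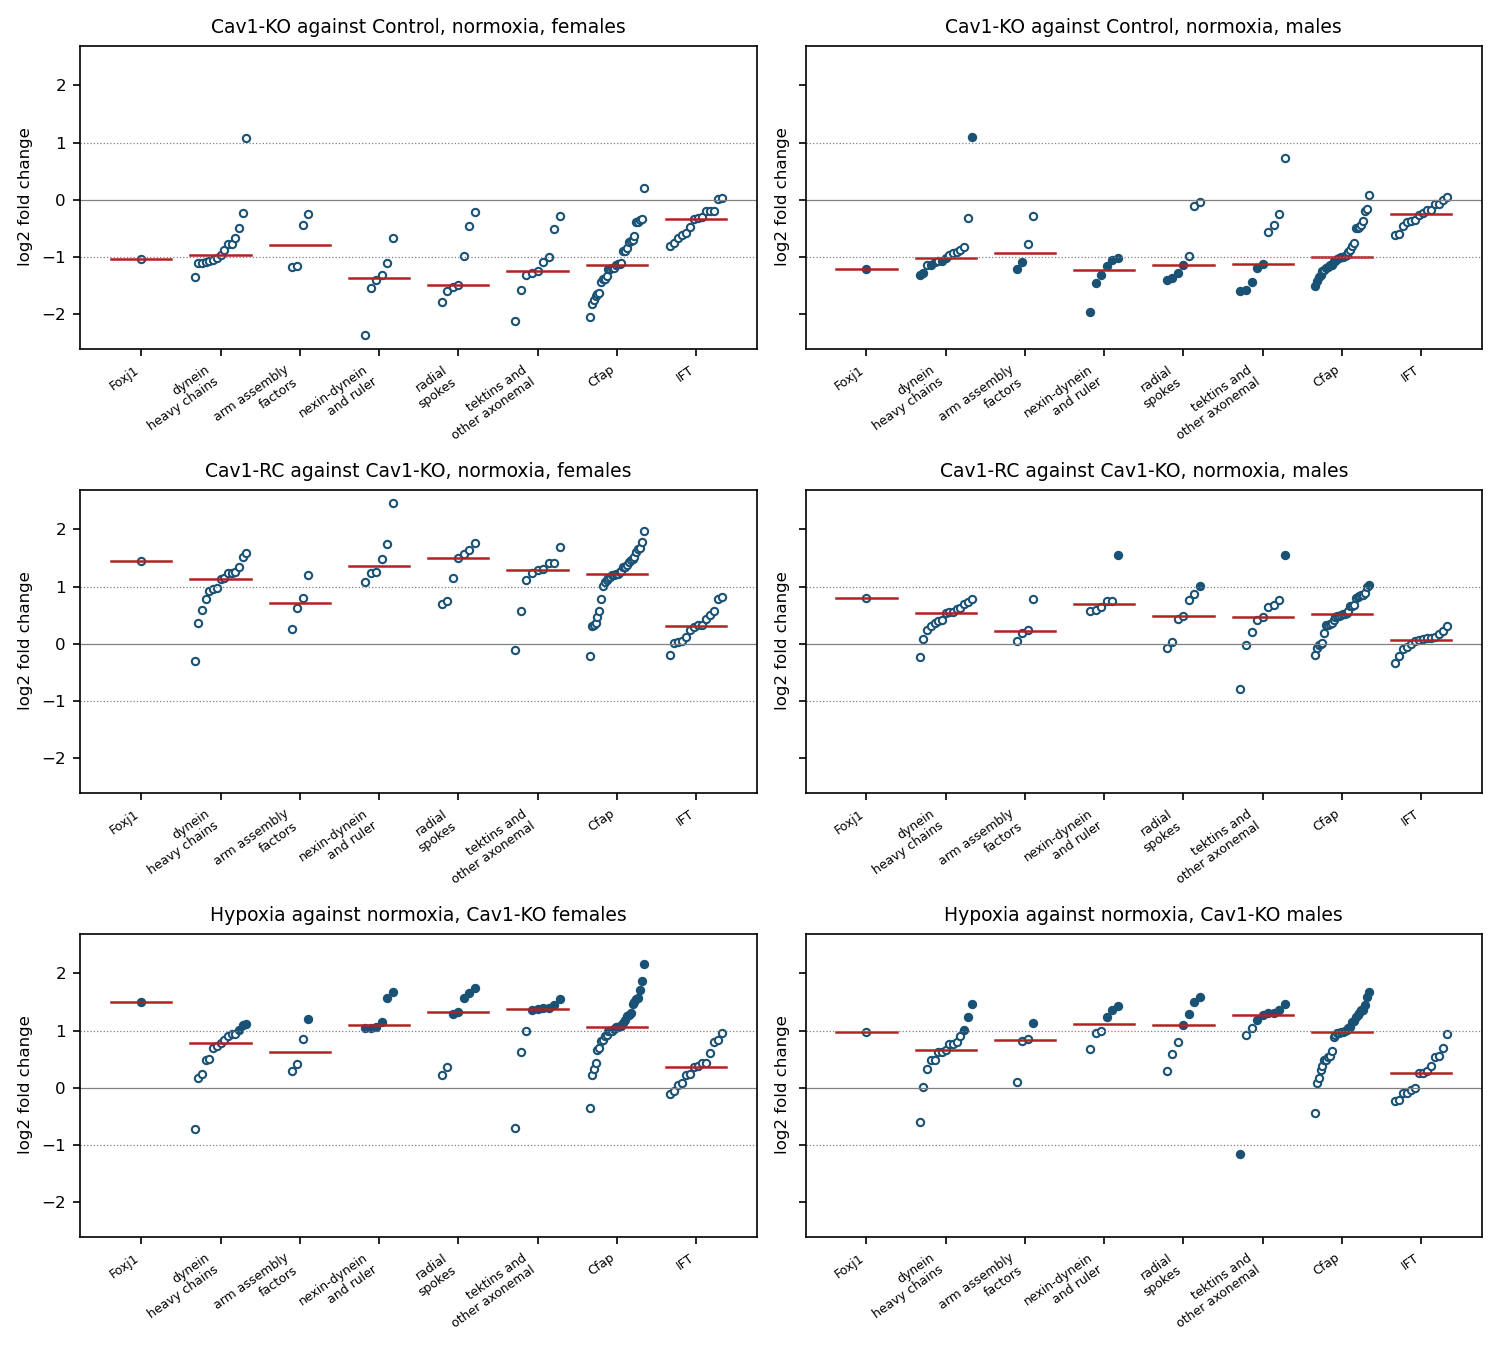
Each point is 1 gene, placed by structural class on the x axis and by its log2 fold change on the y axis, in 6 comparisons; filled points were called, open points were not, red lines are class medians and dotted lines mark the fold threshold. In Cav1-KO males in normoxia the class medians lie between -1.23 and -0.94, apart from IFT at -0.25, and the filled point above 1 is Dnah8.

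Motile cilia genes that the naming rule does not take fell likewise in Cav1-KO males. In a list of 49 tested other motile cilia genes, 33 fell, with a median of -1.10. Cdhr4 and Cdhr3, cadherin-related proteins of ciliated cells, changed by -1.62 ± 0.15 (SE, adjusted p = 0.00134) and -1.11 ± 0.12 (SE, adjusted p = 0.00242), and Hydin, a protein of the central pair, by -1.01 ± 0.11 (SE, adjusted p = 0.00224).

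Markers of club cells, the secretory cells that share the airway lining, were lower in the same libraries. Of 15 club cell genes, 5 fell, with a median of -0.98. Scgb3a1, a secretoglobin, changed by -1.70 ± 0.24 (SE, adjusted p = 0.00519), Muc5b, an airway mucin, by -1.36 ± 0.22 (SE, adjusted p = 0.00902) and Reg3g, an antimicrobial lectin, by -3.59 ± 0.59 (SE, adjusted p = 0.00902). The other 2 were Gabrp and Lypd2. The summed FPKM of the list was 36962 to 39590 in Cav1-KO males and 44931 to 101488 in Control males. Of 11 alveolar type 1 genes 1 rose, Spock2, with 1.22 ± 0.24 (SE, adjusted p = 0.0174) and a list median of 0.39. None of 10 alveolar type 2 genes (median 0.30), 6 basal cell genes or 3 cartilage genes was called. The part of the airway share of the tissue in the cilia result was not tested.

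In females, the values were of the same size, and no gene was called. Cav1-KO had 2 mice here and Control 3. By edgeR 0 of 86 genes passed, where 0.0405% of all genes were called lower and 0.0811% higher. At an unadjusted p under 0.05, 55 of the 86 stood out, against 11.5% of all genes, and the Wald test of DESeq2 called 31 (30 lower and 1 higher). The share of all genes that DESeq2 called is not given here. The log2 fold change was below 0 for 82 of the 86 genes, with a median of -1.01, against -0.02 over all genes. For 63 of the 86, every Cav1-KO female was below every Control female, against 17.5% of all genes.

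Foxj1 was at 52.7, 60.7 and 39.2 FPKM in Control females and at 22.8 and 27.3 in Cav1-KO females, with -1.03 ± 0.24 (SE, adjusted p = 0.201). Ccdc153 was at 85.8, 52.5 and 30.1 FPKM in Control and at 10.9 and 11.1 in Cav1-KO females, with -2.36 ± 0.45 (SE, adjusted p = 0.146). In both genes the Cav1-KO females were the lower ones without overlap, and the Control females spread widely. Rsph1 was at 69.7, 41.2 and 22.9 FPKM in Control and 13.5 and 17.7 in Cav1-KO females, with -1.53 ± 0.47 (SE, adjusted p = 0.282). Dnah6 was at 5.25, 9.98 and 6.50 FPKM in Control and at 2.99 and 2.73 in Cav1-KO females, with -1.35 ± 0.30 (SE, adjusted p = 0.188), Tekt1 had -2.12 ± 0.50 (SE, adjusted p = 0.202) and Cfap126 -1.68 ± 0.46 (SE, adjusted p = 0.245). The highest Control values of Ccdc153 and Rsph1 belong to replicate 1, the mouse on the western blot list, but its Dnah6 value is the lowest of the 3. Without that library 25 genes were called, 24 of them lower, and the median was -0.97. For that fit, the share of all genes called is not given here. By class, the medians in females ran from -1.48 in the radial spokes and -1.36 in the nexin-dynein and ruler genes to -0.33 in the IFT genes. The list of other motile cilia genes had a median of -1.22 and the club cell list one of -1.47, neither with a call. The difference between the sexes was tested as an interaction. By edgeR it was called for 0 of 86 genes (1 at an unadjusted p under 0.05, Tekt5, with an adjusted p of 0.999), with 3.51% of all genes at that p, and the median of the female minus male value was -0.09.

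**Figure D3:**
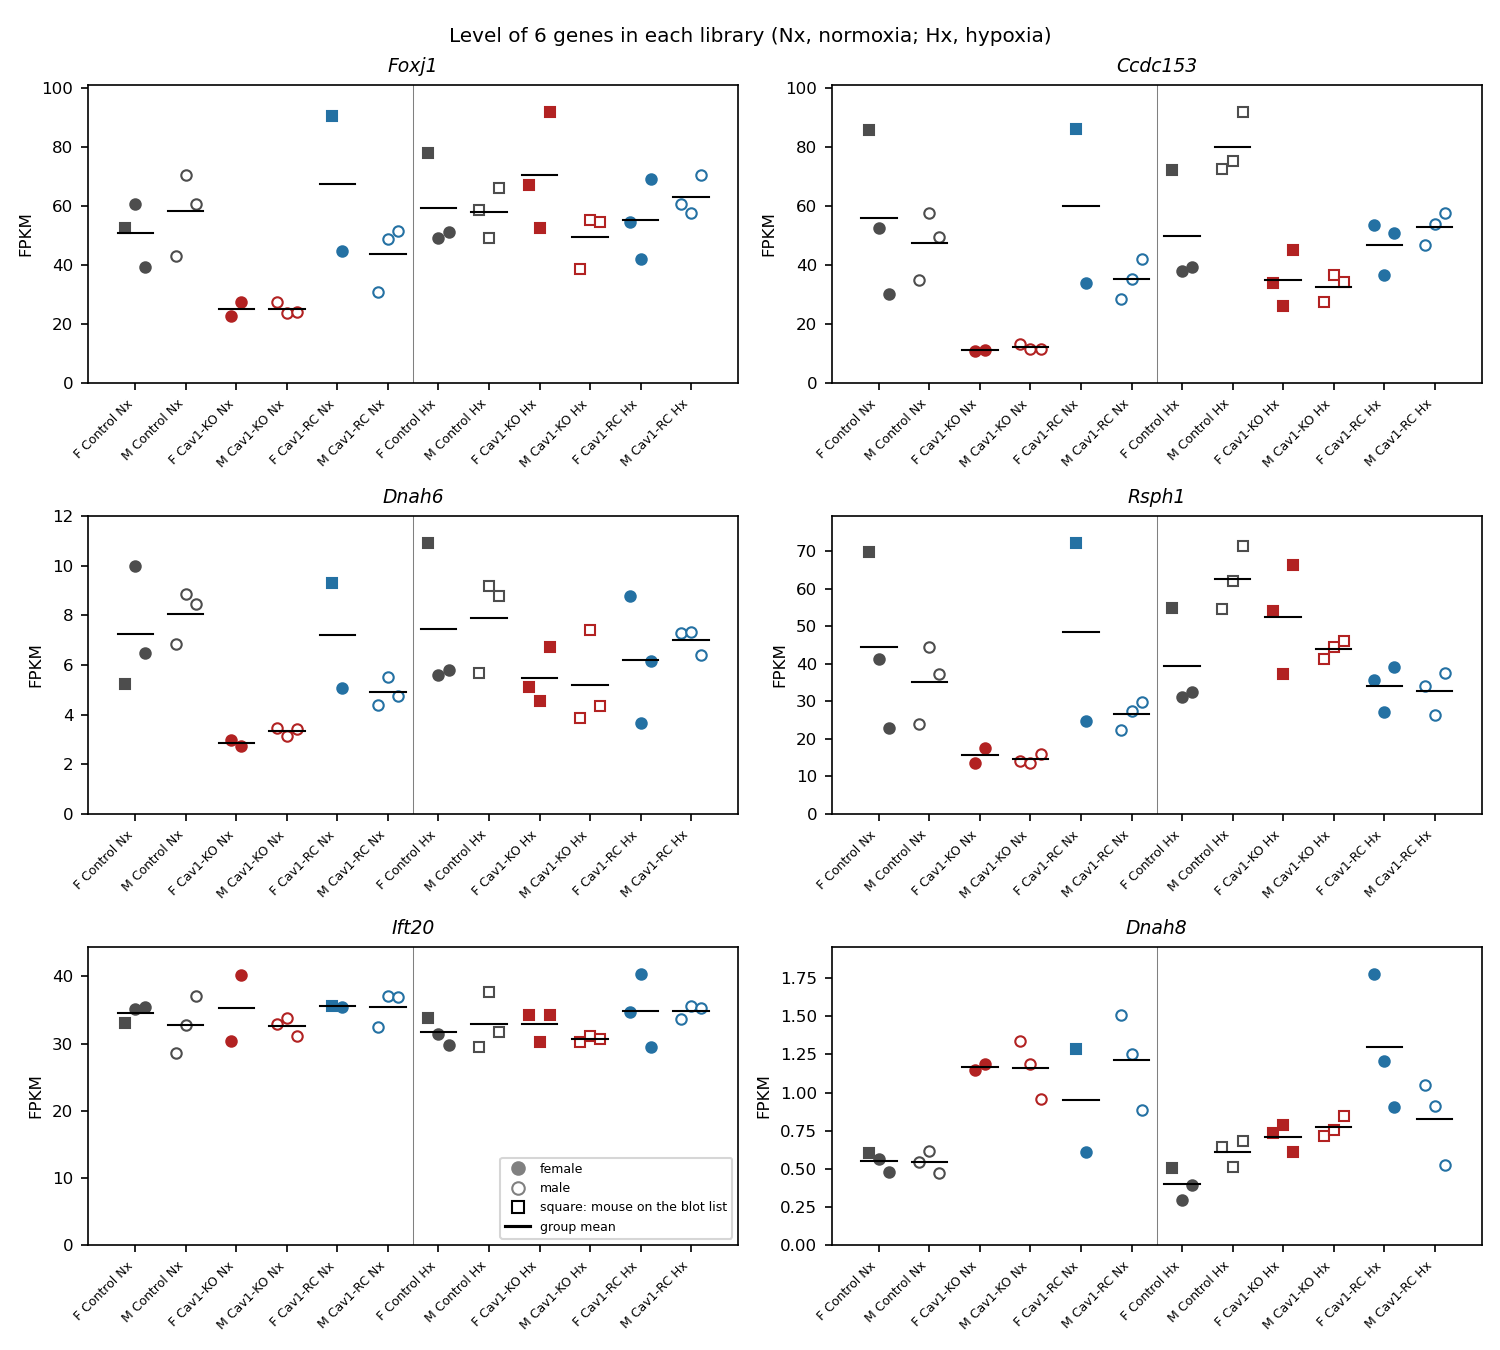
The y axes give the deposited FPKM of 6 genes in each library of the 12 groups (F, female; M, male; Nx, normoxia; Hx, hypoxia); filled symbols are females, open symbols males, squares mice on the western blot list, and lines group means. Foxj1, Ccdc153, Dnah6 and Rsph1 are lowest in the Cav1-KO normoxia groups, Ift20 is level, and Dnah8 is higher in Cav1-KO than in Control normoxia libraries.

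By its labels, the comparison of Cav1-RC with Cav1-KO concerns Cav1 in endothelial cells alone, although the Cav1 counts of these genotypes overlapped. In males in normoxia, 4 of 86 genes rose and 0 fell, where 2.27% of all genes were called higher and 1.32% lower. At any fold change, 45 passed the adjusted p as higher and 2 as lower, against 7.26% and 5.22% of all genes. The median was 0.46, against -0.00 over all genes, and 54 genes were higher in every Cav1-RC than in every Cav1-KO male (15.8% of all genes).

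The 4 genes that rose were Ccdc153, Tekt3, Cfap97d2 and Rsph14. Ccdc153 was at 28.6, 35.3 and 42.1 FPKM in Cav1-RC males, above the 13.3, 11.5 and 11.5 of Cav1-KO, a log2 fold change of 1.55 ± 0.13 (SE, adjusted p = 3.69e-05). Tekt3, a tektin, was at 0.286, 0.188 and 0.184 FPKM in Cav1-KO and 0.423, 0.828 and 0.716 in Cav1-RC males and changed by 1.56 ± 0.40 (SE, adjusted p = 0.0277). Cfap97d2 was at 0.221, 0.262 and 0.357 FPKM in Cav1-KO and at 0.445, 0.770 and 0.522 in Cav1-RC males, with 1.03 ± 0.29 (SE, adjusted p = 0.0431), and Rsph14 had 1.00 ± 0.22 (SE, adjusted p = 0.0143). None of these 4 genes overlapped between the groups. Foxj1 was at 30.9, 48.9 and 51.4 FPKM in Cav1-RC males and had 0.81 ± 0.16 (SE, adjusted p = 0.00824), Rsph1 0.87 ± 0.12 (SE, adjusted p = 0.00116) and Dnah6 0.56 ± 0.09 (SE, adjusted p = 0.00266). These 3 did not reach the fold threshold. Tekt5 had -0.80 ± 0.16 (SE, adjusted p = 0.00820), so that it was lower in Cav1-RC. The class medians ran from 0.69 in the nexin-dynein and ruler genes and 0.54 in the dynein heavy chains down to 0.07 in the IFT genes. The list of other motile cilia genes held 0 calls with a median of 0.52. Of the club cell genes 3 rose, Muc5b with 1.42 ± 0.15 (SE, adjusted p = 0.000153), Reg3g with 2.16 ± 0.31 (SE, adjusted p = 0.00137) and Bpifa1 with 1.23 ± 0.29 (SE, adjusted p = 0.0193). Male Cav1-RC replicates 1 and 2 are among the libraries against their sex label, and without them 9 genes were called. With 1 fit over all libraries 1 gene was called and by DESeq2 2. Leaving out Cav1-RC replicate 2 or Cav1-KO replicate 2 or 3 left 1 call, and leaving out Cav1-RC replicate 3 left 2. Ccdc153 kept its call in each of these fits, and Tekt3 and Cfap97d2 lost theirs.

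In females in normoxia, 2 Cav1-RC were compared with 2 Cav1-KO mice, and edgeR called 0 of 86 genes, with 51 at an unadjusted p under 0.05 (8.73% of all genes) and 23 called by DESeq2. Of all genes edgeR called 0.1%, and the share called by DESeq2 is not given here. The median was 1.14, and 65 genes were higher without overlap (20.8% of all genes). Foxj1 was at 90.5 and 44.7 FPKM in the 2 Cav1-RC females, with 1.44 ± 0.37 (SE, adjusted p = 0.386), and Ccdc153 at 86.1 and 34.1, with 2.45 ± 0.46 (SE, adjusted p = 0.241). The higher value of each pair belongs to replicate 1, which is on the western blot list and held the highest summed level of the 34 libraries, 1013 FPKM, and the highest Scgb1a1 level, 143067 FPKM. Scgb1a1 is the main secretory product of club cells. Without replicate 1 the median was 0.51, and without replicate 2 it was 1.54, each with 1 Cav1-RC mouse left. The female minus male difference had a median of 0.60, and by edgeR it passed for 0 of 86 genes (17 at an unadjusted p under 0.05, against 7.77% of all genes). Without the libraries against their sex label, 2 of the 3 Cav1-RC males, 2 genes had an unadjusted p under 0.05 and the median was 0.50.

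Against Control in normoxia, Cav1-RC males stood somewhat lower. 1 of 86 genes was called, Dnah8, which rose, where 1.22% of all genes were called higher and 1.24% lower. Dnah8 was at 1.51, 1.25 and 0.887 FPKM in Cav1-RC males and had 1.16 ± 0.21 (SE, adjusted p = 0.0236). Without the libraries against their sex label, which leaves 1 Cav1-RC male, it had 0.71 and 0 genes were called. The call was also lost without Control replicate 2 or 3 or Cav1-RC replicate 1 or 2, and 3 genes were called without Control replicate 1. The median of the 86 genes was -0.43, with 7 genes lower and 1 higher at any fold change (1.99% and 2.21% of all genes), and 33 genes were lower without overlap (13.8% of all genes). Foxj1 had -0.42 ± 0.23 (SE, adjusted p = 0.317). Among the other motile cilia genes, Fam183b and Sntn fell, with log2 fold changes of -1.34 and -1.25. Here the IFT genes, with a median of -0.28, were nearer to the other classes, which ran from -0.48 to -0.42. In females the median was 0.05, and edgeR and DESeq2 both called 0 of 86 genes (0.137% of all genes by edgeR), with 0 at an unadjusted p under 0.05 (4.18% of all genes). The sign of this median rested on single mice, since it was -0.44 without Cav1-RC replicate 1 and 0.38 without Cav1-RC replicate 2.

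In Cav1-KO mice of both sexes, motile cilia RNA was higher in hypoxia than in normoxia. In females 38 of 86 genes rose and 0 fell, where 6.29% of all genes were called higher and 7% lower. In males 30 rose and 1 fell, where 8.75% were called higher and 8.97% lower. At any fold change, 62 genes passed as higher in females and 62 in males, against 18.2% of all genes in females and 27.5% in males. The medians were 0.97 in females and 0.90 in males, with all genes at 0.02 and 0.01. Of the genes that rose, 24 were shared, which is 63.2% of the female and 80% of the male calls, and these comparisons have no library in common. All hypoxic Cav1-KO libraries are of mice on the western blot list and all normoxic ones are not, and with a term for the list in 1 fit over all libraries 0 genes were called in either sex, with medians of 0.28 and 0.20. Without normoxia replicate 1 or 2, 17 and 25 genes were called in females.

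Foxj1 was at 67.0, 52.4 and 92.1 FPKM in hypoxic Cav1-KO females, against 22.8 and 27.3 in normoxic ones, and rose by 1.49 ± 0.25 (SE, adjusted p = 0.00443). In males it was at 38.7, 55.3 and 54.7 FPKM against 27.6, 23.7 and 23.9, with 0.98 ± 0.14 (SE, adjusted p = 0.000600), just short of the fold threshold. No hypoxic library overlapped with a normoxic one in either sex. Trp73 rose by 1.42 in females and 1.26 in males, and Ccno, which is needed to make the many centrioles of a multiciliated cell, by 1.07 and 1.31 on the log2 scale.

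Ccdc153 was at 33.9, 26.1 and 45.2 FPKM in hypoxic Cav1-KO females and rose by 1.67 ± 0.23 (SE, adjusted p = 0.00265). In males it was at 27.3, 36.5 and 34.2 FPKM and rose by 1.42 ± 0.13 (SE, adjusted p = 6.92e-05). All 6 hypoxic values were above all 5 normoxic ones. In females all 6 nexin-dynein and ruler genes rose, among them Ccdc39 with 1.15 ± 0.12 (SE, adjusted p = 0.00126), Ccdc40 with 1.04 ± 0.23 (SE, adjusted p = 0.0127) and Drc1 with 1.05 ± 0.18 (SE, adjusted p = 0.00468). In males 3 of the 6 rose, with a median of 1.12, and Ccdc39 had 1.35 ± 0.13 (SE, adjusted p = 8.89e-05).

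The spoke gene Rsph1 was at 54.2, 37.2 and 66.3 FPKM in hypoxic against 13.5 and 17.7 in normoxic Cav1-KO females, and rose by 1.75 ± 0.26 (SE, adjusted p = 0.00333). In males it was at 41.3, 44.4 and 46.1 against 14.0, 13.6 and 16.01 FPKM and rose by 1.59 ± 0.10 (SE, adjusted p = 2.29e-05). Of 7 spoke genes 5 rose in females and 4 in males, and Rsph9 rose by 1.65 ± 0.20 (SE, adjusted p = 0.00161) in females. Among the tektins and other axonemal genes 6 of 9 rose in each sex. Tekt1 changed by 1.56 ± 0.22 (SE, adjusted p = 0.00268) in females and 1.46 ± 0.11 (SE, adjusted p = 4.41e-05) in males. Ak7 was at 14.2, 10.7 and 18.1 FPKM in hypoxic against 5.39 and 5.66 in normoxic females, and rose by 1.37 ± 0.23 (SE, adjusted p = 0.00440). In males Ak7 was at 14.2, 15.4 and 14.2 against 5.77, 5.45 and 5.83 FPKM and rose by 1.35 ± 0.08 (SE, adjusted p = 2.04e-05). Mns1 rose by 1.39 ± 0.18 (SE, adjusted p = 0.00212) in females, and Spef1 had 0.91 ± 0.08 (SE, adjusted p = 6.22e-05) in males. In the Cfap class 16 of 30 rose in females and 13 in males. Cfap53 rose by 1.87 ± 0.22 (SE, adjusted p = 0.00159) and Cfap97d2 by 2.16 ± 0.68 (SE, adjusted p = 0.0423) in females, and Cfap126 by 1.71 ± 0.23 (SE, adjusted p = 0.00231) in females and 1.67 ± 0.08 (SE, adjusted p = 1.25e-05) in males.

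Of the 15 dynein heavy chains 3 rose in each sex, with medians of 0.78 in females and 0.66 in males. Dnah5 changed by 1.12 ± 0.22 (SE, adjusted p = 0.00804) in females. Dnah8 was at 0.734, 0.784 and 0.607 FPKM in hypoxic and 1.15 and 1.19 in normoxic females, with -0.73 ± 0.15 (SE, adjusted p = 0.00991), and had -0.60 ± 0.15 (SE, adjusted p = 0.00906) in males, in neither sex past the fold threshold. Tekt5 fell in males, from 4.25, 3.91 and 3.94 to 1.60, 2.38 and 1.502 FPKM, a log2 fold change of -1.17 ± 0.22 (SE, adjusted p = 0.00195). In males both genes thus had the opposite sign to their classes here and in Cav1-KO against Control in normoxia, comparisons that share the normoxic Cav1-KO libraries. Among the IFT genes edgeR called 0 of 14 in either sex, with medians of 0.37 and 0.26, and 8 in females and 7 in males had an adjusted p under 0.05 as higher at any fold change. Ift43 had 0.96 ± 0.14 (SE, adjusted p = 0.00319) in females and 0.93 ± 0.10 (SE, adjusted p = 0.000167) in males. Of their partners, Bbs5 of the BBSome rose in females by 1.16 ± 0.22 (SE, adjusted p = 0.00670) and the IFT-B protein Cluap1 in males by 1.04 ± 0.12 (SE, adjusted p = 0.000203).

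**Figure D4:**
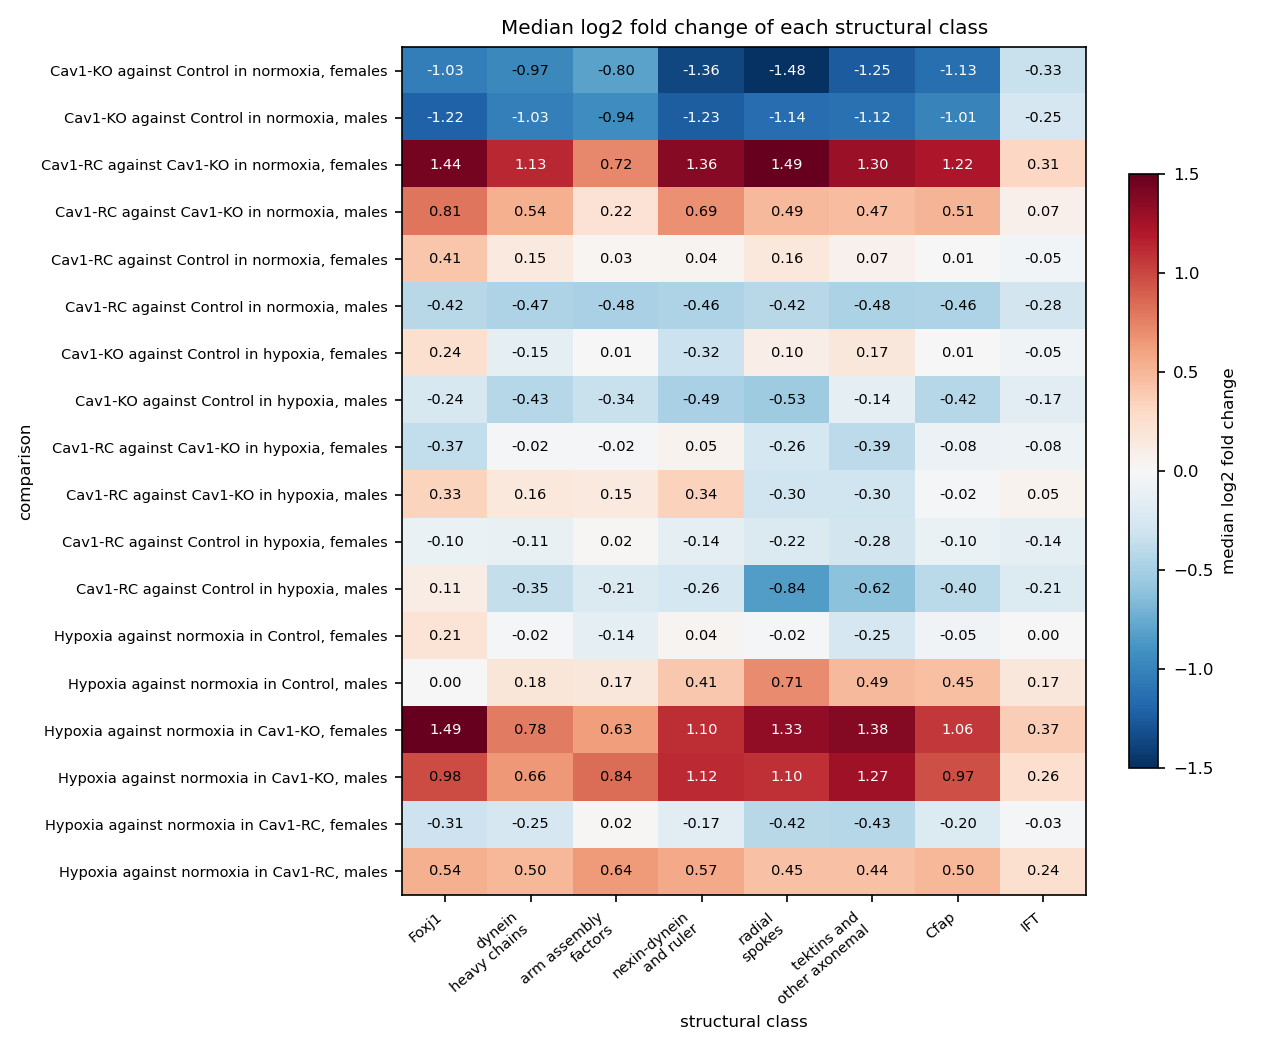
The cells give the median log2 fold change of each structural class (x axis) in each of the 18 comparisons (y axis), blue for lower and red for higher. The IFT column stays between -0.33 and 0.37, and Foxj1 and the axonemal classes are lower in Cav1-KO than in Control in normoxia and higher in hypoxic than in normoxic Cav1-KO lungs.

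The other lists moved in these comparisons too. Of 49 other motile cilia genes 33 rose in females, with a median of 1.25, and 31 in males, with a median of 1.14. Dynlrb2, a dynein light chain, rose by 1.83 in females and 1.53 in males on the log2 scale. Of 15 club cell genes 7 rose in females, with a median of 1.39. In males 6 rose and 2 fell, with a median of 0.78. Scgb1a1 was at 26998 to 30397 FPKM in normoxic and 72249 to 113985 in hypoxic Cav1-KO females, and at 31864 to 34194 and 95498 to 112173 in males, and rose by 1.76 ± 0.27 (SE, adjusted p = 0.00350) and 1.61 ± 0.14 (SE, adjusted p = 6.64e-05). Bpifa1 and Bpifb1, secreted proteins of the upper airway, fell in males, with log2 fold changes of -2.28 and -1.83. Of 10 alveolar type 2 genes 4 fell in females and 6 in males, among them Slc34a2, a phosphate transporter, with -1.82 and -2.31. Of 11 alveolar type 1 genes 2 fell and 1 rose in females, and 4 fell in males. In males 4 of 6 basal cell genes fell and 2 of 4 cartilage genes rose, and 1 male germ cell gene, Sycp3, rose. The part of these shifts in the cilia result was not tested.

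**Figure D5:**
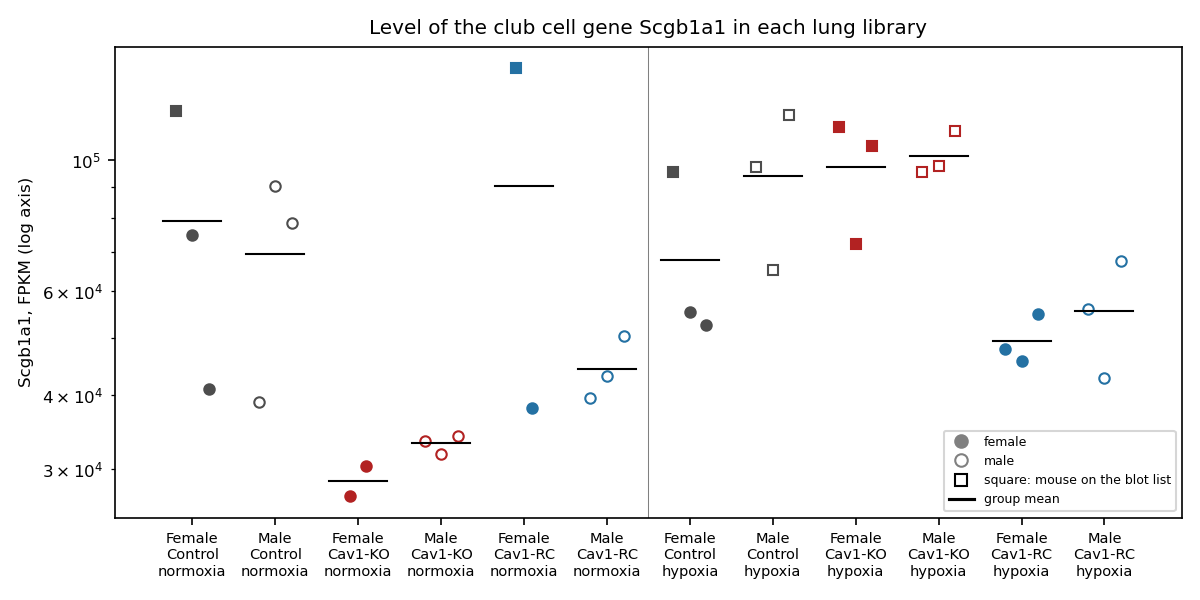
The y axis gives the FPKM of the club cell gene Scgb1a1 on a log scale in each of the 34 libraries; filled symbols are females, open symbols males, squares mice on the western blot list, and lines group means. The 5 Cav1-KO normoxia libraries, at 26998 to 34194, are the lowest, and the 6 Cav1-KO hypoxia libraries lie at 72249 to 113985.

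In Control mice no cilia gene was called between hypoxia and normoxia with all libraries. In females the median was -0.03, and edgeR and DESeq2 called 0 of 86 genes (0.0175% of all genes by edgeR), with 0 at an unadjusted p under 0.05 (4.79% of all genes). Among unlisted females, 2 in each group, 1 gene rose and 7 fell, where 8.47% of all genes were called, and with a term for the western blot list in 1 fit over all libraries 1 fell, where 2.88% were. In males the median was 0.31. All hypoxic males are of mice on the western blot list and no normoxic one is, and with a term for the list in 1 fit over all libraries the median was -0.26. Without hypoxia replicate 2 or normoxia replicate 2, 1 and 3 genes were called. With all libraries, both tools called 0 genes, where 2.44% of all genes were called higher, and 33 of 86 had an unadjusted p under 0.05 (36.1% of all genes). 12 passed at any fold change, all higher (7.6% of all genes). Foxj1 was at 58.7, 49.1 and 66.1 FPKM in hypoxic and 43.2, 70.6 and 60.7 in normoxic Control males and overlapped. The spokes, with a median of 0.71, were the class farthest from 0 there.

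In Cav1-RC males the median was 0.47. By edgeR and DESeq2, 0 genes were called, where 1.42% of all genes were called higher, but 36 passed at any fold change as higher, against 4.4% of all genes, and 66 had an unadjusted p under 0.05 (25.4% of all genes). The hypoxic males were above all normoxic ones in 65 genes (15.3% of all genes). Ccdc153 was at 46.8, 54.0 and 57.8 FPKM in hypoxic and 28.6, 35.3 and 42.1 in normoxic Cav1-RC males, with 0.59 ± 0.14 (SE, adjusted p = 0.0344), and Foxj1 at 60.8, 57.7 and 70.5 FPKM in hypoxic and 30.9, 48.9 and 51.4 in normoxic ones, with 0.54 ± 0.17 (SE, adjusted p = 0.0936). None of these libraries is of a mouse on the western blot list. However, normoxia replicates 1 and 2 went against their sex label, with Xist at 752 and 874 CPM, and no hypoxic library of these males did. Sex by these genes and oxygen are therefore largely mixed in this comparison. In Cav1-RC females the median was -0.22, and both tools called 0 genes (0.0285% of all genes by edgeR), with 0 at an unadjusted p under 0.05 (5.2% of all genes). Only 2 normoxic mice entered here, and without replicate 1, the mouse on the western blot list, the median was 0.27.

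The difference between the responses of Cav1-KO and Control to hypoxia was tested as an interaction. In males 1 of 86 genes passed, where 3.8% of all genes did. This was Ak7, whose response was higher in Cav1-KO by 1.06 on the log2 scale (adjusted p = 0.0266). Without Control hypoxia replicate 2, the library against its sex label, 4 genes passed, against 1077 of all 19059 genes tested. With a replicate block 2 passed, against 405 of 18464. The median of the 86 differences was 0.53, with 72 above 0, and 33 had an unadjusted p under 0.05 (22.4% of all genes). In females edgeR called 0 of 86 genes and 0 of all genes. The median was 0.96, with 78 of 86 above 0, 38 genes had an unadjusted p under 0.05 (26.2% of all genes), and the smallest adjusted p was 0.146. The response to hypoxia did not pass as different between the sexes for any of the 86 genes by edgeR, in Cav1-KO (2 at an unadjusted p under 0.05, 7.84% of all genes) or in Control (6, 17.6% of all genes).

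Within hypoxia few of these genes were called between genotypes. In Cav1-KO against Control males 1 of 86 genes fell, Ccdc153, where 0.58% of all genes were called lower. It was at 72.5, 75.4 and 92.1 FPKM in Control and 27.3, 36.5 and 34.2 in Cav1-KO males, a log2 fold change of -1.31 ± 0.15 (SE, adjusted p = 0.00789), with no overlap. All 6 mice are on the western blot list. The call was lost without Cav1-KO replicate 3, and 3 genes were called without Control replicate 2. The median of the 86 genes was -0.37, and 25 were lower without overlap (11.9% of all genes), but Foxj1 had -0.24 ± 0.17 (SE, adjusted p = 0.467). Krt5, a basal cell keratin, fell in this comparison, with a log2 fold change of -5.39, and 2 of 7 basal cell genes fell. Of 15 club cell genes 2 fell, Muc5b and Reg3g, with a list median of 0.05, and Scgb1a1 overlapped between the groups. Of 10 alveolar type 2 genes 1 fell, Napsa, with a median of -0.62. In females the median was 0.00 and edgeR and DESeq2 called 0 genes (0.768% of all genes by edgeR), with 8 at an unadjusted p under 0.05 (29% of all genes). All 3 Cav1-KO females and 1 Control female are on the western blot list. Without that Control library, replicate 1, 7 genes were called, and with a term for the list in 1 fit over all libraries the median was -0.36 and 1 gene was called. The 0.768% is not from these fits, and their shares of all genes are not given here.

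Cav1-RC against Cav1-KO in hypoxia gave 0 calls by edgeR and by DESeq2 in either sex, although 8.98% of all genes were called in females and 14.8% in males. The medians were -0.07 in females (13 genes at an unadjusted p under 0.05, 37.7% of all genes) and 0.08 in males (29 genes, 52.7% of all genes). In males the members split, with 8 higher and 8 lower at any fold change (21.6% and 22.9% of all genes). Ccdc153 had 0.68 ± 0.13 (SE, adjusted p = 0.00395) and Dnah9 0.79 ± 0.19 (SE, adjusted p = 0.00908), both higher in Cav1-RC, while the class medians of spokes and of tektins and other axonemal genes were both -0.30. No Cav1-RC mouse in hypoxia is on the western blot list and every Cav1-KO one is. With a term for the list in 1 fit over all libraries, 5 genes were called in each sex, and the medians were 0.41 in females, the other sign, and 0.64 in males. The 8.98% and 14.8% are not from that fit, whose shares of all genes are not given here.

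Against Control in hypoxia, 1 of 86 genes fell in Cav1-RC males, where 4.2% of all genes were called lower. This was Tekt1, at 19.6, 36.0 and 26.6 FPKM in Control and 13.7, 12.7 and 14.6 in Cav1-RC males, with -1.01 ± 0.20 (SE, adjusted p = 0.00620). At any fold change 31 genes were lower and 2 higher, against 18.4% and 18.5% of all genes, and the median was -0.36. The Control mice are all on the western blot list and the Cav1-RC mice are not, and with a term for the list in 1 fit over all libraries Tekt1 had 0.17. Tekt1 also lost its call by DESeq2, with the size factors of DESeq2, with a replicate block and without Control replicate 2 or Cav1-RC replicate 2. The count rose to 6 and 5 without Control replicate 1 or Cav1-RC replicate 3. In females the median was -0.13, edgeR called 0 (0.832% of all genes) and DESeq2 1, and 3 genes had an unadjusted p under 0.05 (8.43% of all genes).

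Over the 18 comparisons, 32 of the 86 genes were never called by edgeR with all libraries. All 14 IFT genes were among them, together with 8 of 30 Cfap genes, 5 of 15 dynein heavy chains, 2 of 7 spoke genes, 2 of 4 assembly factors and 1 of 9 tektins and other axonemal genes. Each of the 6 nexin-dynein and ruler genes and Foxj1 was called at least once.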

How the data were processed

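RNA of whole lungs from 34 mice was analysed, 2 or 3 mice per group of genotype, sex and oxygen level, each library from a separate mouse. The authors enriched poly A RNA and built dUTP directional libraries, mapped the reads to mm10 with HISAT2 2.0.5 and counted them per gene with featureCounts 1.5.0-p3 (tools and build per the submitters' processing notes), and deposited raw counts. The paper gives default parameters for featureCounts and names no strand setting, so antisense and overlapping genes may share reads. The authors also deposited FPKM, made from these counts by gene length and library size. Depth was 12425535 to 33343006 counts per library (median 18015172.5).

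Counts were tested with edgeR 4.0.16 in R 4.3.3 on the libraries of the 2 groups compared, with TMM normalization, filterByExpr and the quasi-likelihood F test across all genes. A call needed a log2 fold change beyond 1 in size and a Benjamini-Hochberg adjusted p under 0.05. Interactions were fitted on the libraries of 4 groups and called at the adjusted p alone. FPKM were used for levels only, with 0.1 added before taking logs. DESeq2 1.42.0 was an alternative, as were its size factors, no filter on low counts, 1 fit over all libraries with and without a term for the western blot list, a replicate block and leaving out libraries. The code was checked on simulated data. The genes and the lists of other cell types were chosen with earlier results of these data known.

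Genes were named by a rule. It takes the 6 genes given by symbol, the 3 with the highest FPKM in each class, up to 3 per direction with the smallest adjusted p in each comparison, called genes against the direction of the median, near-identical copies, and of each other list up to 3 called genes. Cfap97d2, Ift74, Ift80, Ift81, Ift88, Ift172, the genes named for promoter matches and some genes of the other lists were chosen after their values were seen. 1 further library, whose labels leave its group uncertain, entered no comparison. Of 49 correlations of the deviations of same-numbered replicates from their group means, 36 were at or under 0.1. The highest was 0.635, between replicate 1 of Cav1-RC and of Control females in normoxia, both on the western blot list. Replicates differed by more than sampling noise in each of 32 pairs.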

Additional observations from a re-analysis of the deposited data

Results flagged for a closer look

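In males, the response of Ak7 to hypoxia differed between Cav1-KO and Control. The difference between the log2 fold changes was 1.06 (adjusted p = 0.0266, edgeR interaction over all genes), and Ak7 was the 1 gene of the 86 that passed this test with all libraries. Of all genes, 3.8% passed it. Without male Control hypoxia replicate 2, the library against its sex label, 4 genes passed, against 1077 of all 19059 genes tested. Of these 4, 3 had a higher and 1 a lower response in Cav1-KO. With a replicate block 2 passed, against 405 of 18464. In females the difference was 1.38 (adjusted p = 0.146). All hypoxic males of both genotypes are mice on the western blot list and all normoxic males are not.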

How the results depend on the processing

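Counts of called genes among the 86 and their medians are given where an alternative moved them, with the value of the report before the alternative. The shares of all genes called under the alternatives are not given in this section. With 1 fit over all libraries, calls went from 0 to 25 in Cav1-KO against Control in normoxia in females, 0 to 18 and 4 to 1 in Cav1-RC against Cav1-KO in normoxia in females and males, 1 to 2 in Cav1-KO against Control in hypoxia in males, and 0 to 1 and 1 to 2 in Cav1-RC against Control in hypoxia in females and males. By the Wald test of DESeq2 the same comparisons gave 31, 23, 2, 2 and, for Cav1-RC against Control in hypoxia in females, 1, and with its size factors the males of that comparison gave 0. With no filter on low counts, they gave 31, 44, 2 and 1 and 2, with Cav1-RC against Cav1-KO in normoxia in males not moved.

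With a term for the western blot list, in normoxia, Cav1-KO against Control gave 19 calls and a median of -0.77 in females, and Cav1-RC against Cav1-KO gave 3 and 0.69 in females and 1 in males. In hypoxia, Cav1-KO against Control gave 1 and -0.36 in females and 2 in males, Cav1-RC against Cav1-KO 5 and 0.41 in females and 5 and 0.64 in males, and Cav1-RC against Control 1 in females and 0 and 0.26 in males, where Tekt1 turned from lower to higher by 0.17. For hypoxia against normoxia, Control females gave 1, Control males a median of -0.26, and Cav1-KO 0 and 0.28 in females and 0 and 0.20 in males. These groups were on the list as a whole or not at all in Cav1-KO, so the term rests on the other groups. Restricted to unlisted libraries, an alternative chosen after seeing the data, Cav1-KO against Control in normoxia gave 25 in females, Cav1-RC against Cav1-KO in normoxia 2 and 0.51 in females, Cav1-RC against Control in hypoxia 1 in females, hypoxia in Control females 8, and hypoxia in Cav1-RC females a median of 0.27. Restricted to listed ones, Cav1-KO against Control in hypoxia had a median of -0.38 in females.

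At any fold change, also chosen after seeing the data, calls were 47 in Cav1-RC against Cav1-KO in normoxia in males, 8 in Cav1-RC against Control in normoxia in males, 2 in Cav1-KO against Control in hypoxia in males, 6 and 16 in hypoxic Cav1-RC against Cav1-KO females and males and 33 in Cav1-RC against Control in hypoxia in males. For hypoxia against normoxia they were 12 in Control males, 63 and 65 in Cav1-KO females and males and 36 in Cav1-RC males. Without the libraries against their sex label, males gave 9 in Cav1-RC against Cav1-KO and 0 in Cav1-RC against Control in normoxia, 3 in Cav1-KO against Control and 2 in Cav1-RC against Control in hypoxia, 1 for hypoxia in Control, a median of 0.34 for hypoxia in Cav1-RC, and 4 in the interaction of genotype and oxygen.

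With a replicate block, calls were 35 in Cav1-KO against Control and 21 in Cav1-RC against Cav1-KO in normoxia in females, 1 and 0 in Cav1-RC against Control in hypoxia in females and males, and 2 in the male interaction of genotype and oxygen, and hypoxia in Cav1-KO females had a median of 0.75. In none of the 13 comparisons with 3 pairs did every pair of same-numbered replicates correlate above 0.1. In Cav1-RC against Control in normoxia in females, which has 2 pairs, both did (0.219 and 0.635).

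Leaving out each library in turn, calls of Cav1-KO against Control in normoxia were 0 to 25 in females and 23 to 53 in males, those of Cav1-RC against Cav1-KO 1 to 60 (median 0.51 to 1.54) and 1 to 6, and those of Cav1-RC against Control 0 to 3 in males, with a median of -0.44 to 0.38 in females. In hypoxia, Cav1-KO against Control gave 0 to 7 in females and 0 to 3 in males, Cav1-RC against Cav1-KO 0 to 1 in each sex, and Cav1-RC against Control 0 to 1 and 0 to 6. The female medians were -0.19 to 0.26, -0.22 to 0.10 and -0.26 to 0.15 in these comparisons. In male Cav1-RC against Cav1-KO the median was -0.02 to 0.17. The sign of these medians thus turned with single mice. For hypoxia against normoxia, Control gave 0 to 3 in males and a median of -0.36 to 0.11 in females, Cav1-KO 17 to 49 in females (median 0.74 to 1.09) with a male median of 0.74 to 0.97, and Cav1-RC females a median of -0.59 to 0.27. The libraries that moved a count by over 1.5 times, or from 0, were the following. In normoxia, Cav1-KO against Control went to 25 without female Control replicate 1, and to 26, 23 and 24 without male Cav1-KO replicates 1, 2 and 3. Female Cav1-RC against Cav1-KO went to 2 and 60 without Cav1-RC replicates 1 and 2 and to 1 without either Cav1-KO replicate. Male Cav1-RC against Cav1-KO went to 1 without Cav1-RC replicate 2 or Cav1-KO replicate 2 or 3 and to 2 without Cav1-RC replicate 3. Male Cav1-RC against Control went to 3 without Control replicate 1 and to 0 without Control replicates 2 or 3 or Cav1-RC replicates 1 or 2. In hypoxia, Cav1-KO against Control went to 7 without female Control replicate 1, to 3 without male Control replicate 2 and to 0 without male Cav1-KO replicate 3. Cav1-RC against Cav1-KO went to 1 without female Cav1-RC replicate 1 or 3 and to 1 without male Cav1-KO replicate 2, and female Cav1-RC against Control to 1 without Control replicate 1. Male Cav1-RC against Control went to 6 and 2 without Control replicates 1 and 2 and to 0 and 5 without Cav1-RC replicates 2 and 3. Hypoxia in Control males went to 1 without hypoxia replicate 2 and to 3 without normoxia replicate 2. Hypoxia in Cav1-KO females went to 17 and 25 without normoxia replicates 1 and 2. An arm left with 1 library was assumed to vary like the other group.

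The genes named with a fold change gave 1017 values under the alternatives, of which 834 kept their direction and their side of the threshold, 106 kept their direction and lost the call, 76 gained it and 1 turned. The cause of these shifts was not tested.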

Other observations

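1 library, labelled Cav1-KO, female and normoxia with each term marked uncertain, was kept out of all comparisons. Its Cav1 level was 1.34 FPKM, where the labelled libraries held 0.461 to 1.13 in Cav1-KO, 0.423 to 1.89 in Cav1-RC and 284 to 394 in Control. Its sum over the 88 genes was 766 FPKM, against 370 to 412.1 in the 5 Cav1-KO normoxia libraries. Of the 88 genes, 74 lay inside the range of the 6 Control normoxia libraries, 8 above it and 6 below it. 73 of the 88 were above all 5 Cav1-KO normoxia libraries. The median over 86 genes of log2(FPKM + 0.1) minus the Control normoxia mean was 0.05, and its Scgb1a1 level was 111452 FPKM. The mouse is on the western blot list, which enters it as a Cav1-KO female in normoxia, while the 5 labelled Cav1-KO normoxia libraries are of mice not on it.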
